A study of Mus musculus with 21 samples.

Results

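Paneth cells of mice that drank zinc water were compared between 4 libraries of mice given antibiotics to deplete their bacteria and 3 libraries of conventionally colonised mice. Paneth cells are the secretory cells at the base of the small intestinal crypts, and each library was made from messenger RNA of purified Paneth cells of the small intestine. The antibiotics zinc group received 200 mM zinc sulphate in the drinking water for 7 weeks and broad-spectrum antibiotics during the last 3 of these weeks. The SPF zinc group (specific pathogen free, with an ordinary gut microbiota) received the same zinc water for 7 weeks and no antibiotics. These 7 libraries are among 21 in 6 groups. The other groups received Milli-Q water (purified water without zinc) with or without antibiotics, or were germ-free mice on either water. The strain was C57BL/6J throughout, and no allele or transgene was involved. Age and sex per mouse, the single antibiotics given and the housing by cage were not given in the sources used here. Cage, sorting day and treatment therefore cannot be told apart, and a single treated group of 4 libraries stands for the antibiotics condition.

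Paneth cells release antimicrobial proteins from granules: the alpha-defensins (Defa genes), lysozyme (Lyz1) and C-type lectins of the Reg3 family, some of which follow the presence of bacteria. Zinc is stored in the same granules and bound in the cytosol by metallothioneins. Absorptive enterocytes and mucus-making goblet cells lie next to Paneth cells in the epithelium, so transcripts of their genes in a sorted library can come from a few other cells or from the Paneth cells themselves.

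The table held 12052705 to 14895603 counts per library in the 7 zinc libraries, and none of the 21 pairs of these libraries agreed within sampling noise. Defining transcripts of Paneth cells dominated every library. Alpha-defensin genes took 25.3 to 36.4% of all counts, and Lyz1 was at 73424 or more counts per 1000000 (CPM, here of the library size scaled by the trimmed mean of M values, TMM). SPF zinc replicate 1 stood apart from the rest in its sex-linked transcripts. Its Xist count was 6228, where the other 6 libraries reached at most 34, and it had 1 count over the Y-linked genes against at least 1038. By these transcripts SPF zinc replicate 1 read as female and the other 6 libraries as male, so sex was not balanced between the groups. Xist, the RNA that silences an X chromosome, was accordingly lower with antibiotics (log2 fold change −8.97, adjusted p = 0.00114 by edgeR), and without that library its adjusted p was 0.151. Results below are given with and without this library where its removal changed them.

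Across 13070 genes with enough counts, 1172 (8.97%) differed at an adjusted p under 0.05 (quasi-likelihood F-test of edgeR). Antibiotics mice had 622 of them (4.76%) higher and 550 (4.21%) lower. These shares of all tested genes are the background for every list count below. The falls were larger than the rises. Of the called genes, 59 were at least 2-fold higher and 263 at least 2-fold lower, and the libraries of both groups did not overlap for 1144 of the 1172, as they did not for 3628 (27.8%) of all tested genes. The median log2 fold change of all tested genes was −0.0017. With library totals in place of TMM scaling that median became 0.127, and the split of called genes was 446 higher and 160 lower, so that 73.6% rather than 53.1% of the called genes were higher. The count depended on single libraries. It was 512, 1059, 922 and 617 without antibiotics zinc replicates 1 to 4 in that order, and 573, 272 and 376 without SPF zinc replicates 1 to 3. Rises numbered 268, 611, 477 and 312, then 282, 120 and 175, in the same order of fits. Falls numbered 244, 448, 445 and 305, then 291, 152 and 201. In all 7 of these fits 199 genes (88 higher, 111 lower) passed. The study describes its libraries as made from individual mice, and the labels name no mouse or sort per library. The p-values set each difference against a spread between libraries that was estimated over all 21 libraries in 6 groups, not over the 7 compared alone.

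**Figure D1:**
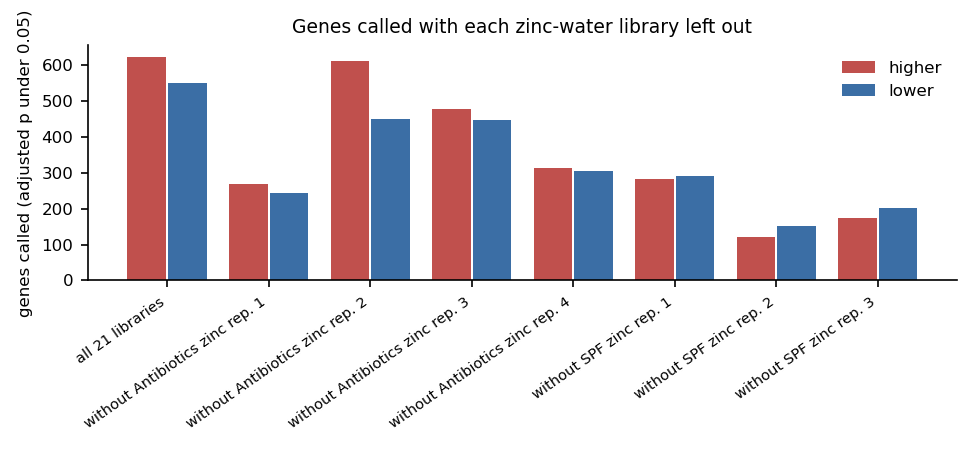
Number of genes called higher (red) and lower (blue) with antibiotics on zinc water, in the fit of all 21 libraries and in the fits that left out each zinc-water library in turn (linear axis from 0). The numbers run from 120 higher and 152 lower without SPF zinc replicate 2 to 622 and 550 with all libraries.

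Of 5 tested genes of the Reg lectin family, 3 fell with antibiotics (background 4.21% lower). Reg3b and Reg3g encode secreted lectins that bind bacteria, and both were lower in all antibiotics zinc libraries than in any SPF zinc library. Reg3b (chr6:78347640-78350455, plus strand, GRCm39) was measured at 5.33, 2.98, 8.96 and 10.9 CPM with antibiotics, against 174, 43.8 and 44.1 CPM in SPF mice. The groups did not overlap, and SPF zinc replicate 1 was the highest of its group. The log2 fold change of Reg3b was −3.64 ± 0.43 (SE; adjusted p = 3.74e-05), and −2.65 (adjusted p = 0.000248) without that library. Reg3g, its close neighbour on chromosome 6, read 35, 31.7, 17.5 and 58.6 CPM against 461, 168 and 172 CPM. This was 7.47-fold lower with antibiotics (log2 fold change −2.90 ± 0.35, adjusted p = 5.32e-05), and −2.25 on the log2 scale without SPF zinc replicate 1 (adjusted p = 0.00076). Reg1 of the same family, at 1.28 to 5.75 CPM against 6.33 to 25.4 CPM, fell by 2.47 on the log2 scale (adjusted p = 0.034), a call that was lost without antibiotics zinc replicates 1, 2 or 3 or SPF zinc replicates 1 or 2 (adjusted p = 0.18 without SPF zinc replicate 1). Reg3a, chosen after its value was seen, and Reg4 did not pass (log2 fold changes −1.45 and −0.04).

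Of the 18 tested members of a list of microbe-induced genes, 3 fell, all of them Reg genes, and none rose. Mptx2, a pentraxin made by Paneth cells, read 1519, 1878, 1391 and 2202 CPM with antibiotics against 6233, 4203 and 4331 CPM, with no overlap, and was 2.82-fold lower (log2 fold change −1.49 ± 0.28, adjusted p = 0.00336). Pdia2, a protein disulphide isomerase of secretory cells, read 15.5, 12.8, 10 and 11.7 CPM against 88.7, 68.8 and 63.2 CPM. Its log2 fold change of −2.55 ± 0.25 (adjusted p = 3.29e-06) was close to its value on Milli-Q water, −2.34. Slc28a2, a nucleoside transporter, fell by 2.38, and Selenop, the plasma selenium carrier, by 1.84 on the log2 scale (adjusted p 1.9e-05 and 5.32e-05). Txnip, an inhibitor of thioredoxin that rises with glucose, fell by 1.33 (adjusted p = 0.000251). Cfi, a complement regulator, fell by 1.67, C1qtnf1 by 1.85 and S100g, a calcium-binding protein of the absorptive epithelium, by 2.74. These calls, from Mptx2 on, held in all 7 fits that left out a library. Pdia2, Slc28a2, Selenop, Txnip, Cfi, C1qtnf1 and S100g were outside the rule for named genes and were chosen after their values were seen.

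**Figure D2:**
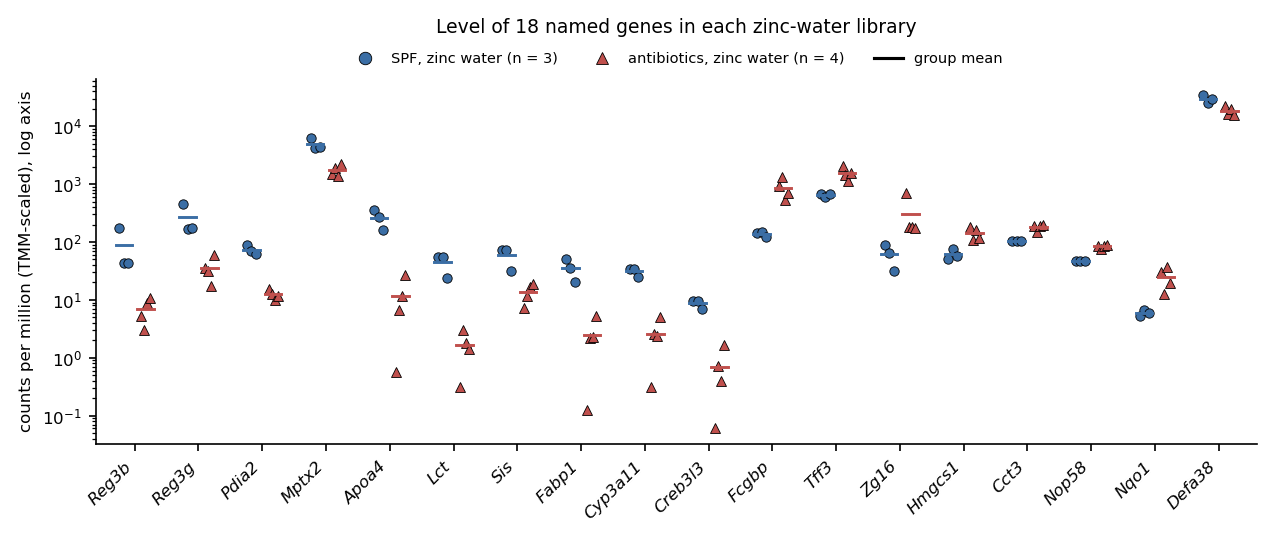
CPM (TMM-scaled, log axis) of 18 named genes in each zinc-water library, with circles for the 3 SPF and triangles for the 4 antibiotics libraries and a line at each group mean. Reg3b lies at 2.98 to 10.9 CPM in the antibiotics libraries and at 43.8 to 174 CPM in the SPF libraries.

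Transcripts of absorptive enterocytes were lower in the antibiotics libraries. Of 32 tested enterocyte markers, 21 fell and none rose (background 4.21% lower), and all 32 had a negative log2 fold change, with a median of −1.07. Lct, the brush border lactase, read 0.310, 3.04, 1.82 and 1.44 CPM against 55.6, 55.3 and 23.5 CPM. The groups lay far apart, and Lct fell by 4.73 ± 0.85 on the log2 scale (adjusted p = 0.0031). Sis, sucrase-isomaltase, read 7.37, 11.8, 16.4 and 19.1 CPM against 72.0, 72.1 and 31.6 CPM (log2 fold change −2.10 ± 0.38, adjusted p = 0.00319). Cubn, the receptor for vitamin B12 bound to intrinsic factor, and Slc9a3, the apical sodium-proton exchanger, fell by 4.63 and 3.85. Each was under 1 CPM in every antibiotics library. Slc34a2, a phosphate transporter, fell by 3.64 and Pdzk1, a scaffold of brush border transporters, by 4.07, the last with an adjusted p of 0.0547 without SPF zinc replicate 2. The list is not uniform in size of change. Slc5a1, the sodium-glucose transporter, and Cdhr2, an adhesion protein of microvilli, fell by 0.84 and 0.70 from levels of 64.0 to 82.8 CPM and 141 to 176 CPM. The summed level of the markers was 1418.5 to 1742.6 CPM with antibiotics and 2290.8 to 3491.7 CPM in SPF mice on zinc, and the SPF Milli-Q group had 1451.5 to 1948.1 CPM. The SPF zinc libraries thus lay above those of antibiotics mice on zinc and of SPF mice on Milli-Q water, and the latter groups overlapped. The cells had been purified by fluorescence-activated sorting. In such bulk libraries, fewer enterocytes among the sorted cells, less of these RNAs per enterocyte and lower expression in the Paneth cells themselves cannot be told apart. The number of called markers was 14, 18, 18 and 21 without antibiotics zinc replicates 1 to 4 and 13, 12 and 19 without SPF zinc replicates 1 to 3, and 12 markers stayed called throughout. Scaled by library totals, 16 markers were called lower and the median log2 fold change was −0.935.

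**Figure D3:**
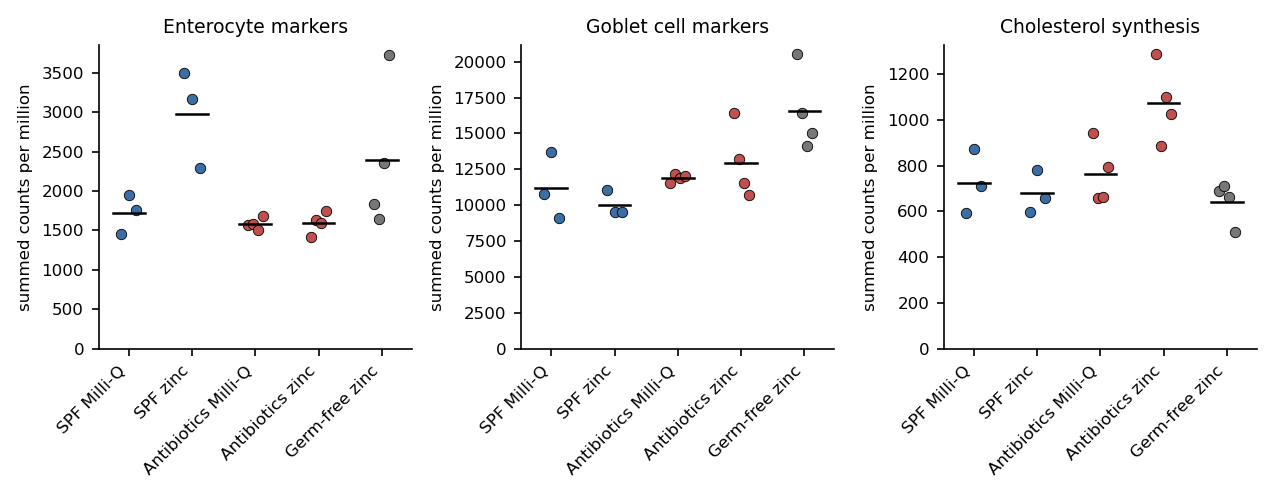
Summed CPM of enterocyte markers, goblet cell markers and cholesterol synthesis genes in 5 groups (linear axis from 0, a point per library and a bar at the group mean). SPF zinc libraries hold 2290.8 to 3491.7 CPM of enterocyte markers and antibiotics zinc libraries 1418.5 to 1742.6 CPM.

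Genes of lipid uptake and lipoprotein assembly, 5 of which are also on the enterocyte list, were among the falls. Of 24 tested, 12 fell and none rose, with a median log2 fold change of −0.855, and 7 stayed called in all 7 leave-one-out fits. Apoa4, an apolipoprotein of chylomicrons, read 0.557, 6.74, 11.8 and 27.0 CPM against 353, 265 and 159.7 CPM, and fell by 4.5 ± 1.02 on the log2 scale (adjusted p = 0.0103). Antibiotics zinc replicate 1 was the lowest library for it. Apoa1, the main protein of high-density lipoprotein, fell by 3.75, and its adjusted p reached 0.0682 without antibiotics zinc replicate 1, SPF zinc replicate 1 or SPF zinc replicate 2. Fabp1, the fatty acid carrier, fell by 3.85 and Apob, the structural protein of chylomicrons, by 1.37. Creb3l3, a membrane-bound transcription factor that drives apolipoprotein genes, read 0.0619, 0.720, 0.404 and 1.63 CPM against 9.70, 9.67 and 7.07 CPM (log2 fold change −3.63 ± 0.53, adjusted p = 0.00052). The cholesterol importer Npc1l1 fell by 1.71 and the sterol exporter subunit Abcg5 by 1.32 (adjusted p 0.00421 and 0.00271). Fewer members were called without SPF zinc replicate 2, when 7 remained significant, than without any other library (8 to 11). Scaled by library totals, 8 members were called lower and the median was −0.728.

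Pdk4, which switches off pyruvate dehydrogenase in the fasted state, fell from a low level, with 0.0619, 0.412, 0.0674 and 0.326 CPM against 7.34, 4.91 and 3.13 CPM (log2 fold change −4.45 ± 0.79, adjusted p = 0.00279). Of 34 fatty acid oxidation genes 2 fell and 2 rose, close to the shares over all tested genes (4.21% lower and 4.76% higher). No rise was called without antibiotics zinc replicates 1 or 4 or any one SPF zinc library. Among 31 glycolysis and gluconeogenesis genes 3 rose and 4 fell (background 4.76% higher and 4.21% lower). The rises numbered 0 to 2 in the leave-one-out fits, and all 4 falls stayed called in each of them. The falls were Pfkfb2, a regulator of glycolysis (log2 fold change −1.12), G6pc1, the last step of glucose release (−5.19), the fructose transporter Slc2a5 (−0.98) and the glucose transporter Slc2a2 (−3.39). G6pc1 was at 0 in antibiotics zinc replicates 1 and 4 and at 0.670 to 3.84 CPM in SPF mice.

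Several goblet cell markers were higher with antibiotics: 6 of 18 tested rose (background 4.76% higher) and none fell, with a median log2 fold change of 0.625. Fcgbp, a large protein of the mucus gel, read 912, 1305, 538 and 693 CPM against 145, 149 and 123 CPM. Every antibiotics library lay above every SPF library, and the gene was 6.20-fold higher (log2 fold change 2.63 ± 0.25, adjusted p = 2.86e-06). Tff3, the trefoil peptide of goblet cells, read 2049, 1438, 1131 and 1530.5 CPM against 674, 597 and 661 CPM (log2 fold change 1.25 ± 0.20, adjusted p = 0.00145). Zg16, a lectin of mucus that binds Gram-positive bacteria, read 693, 180.2, 184 and 172 CPM against 89.5, 63.4 and 31.4 CPM, a rise of 2.32 (adjusted p = 0.00853) that missed the threshold without SPF zinc replicate 3 (adjusted p = 0.0549). Of the antibiotics libraries, replicate 1 was high for Zg16 and for Guca2a, the precursor of guanylin (1152 CPM against 678 to 756 CPM in the other antibiotics libraries and 479 to 491 CPM in SPF mice). Guca2a rose by 0.76 (adjusted p = 0.0108), and without SPF zinc replicate 2 its adjusted p was 0.0544. Clca1, a mucus-processing protease, rose by 1.72, and its adjusted p reached 0.0787 when antibiotics zinc replicate 1 or SPF zinc replicates 2 or 3 were left out. The gel-forming mucin Muc2 (652 to 1242 CPM against 589 to 968 CPM) and Agr2, which folds it (1618 to 2413 CPM against 1032 to 1249.7 CPM), did not pass (adjusted p 0.565 and 0.0909), and both were chosen after their values were seen. The list sums were 10712 to 16415 CPM and 9520.9 to 11058 CPM and overlapped. The number of called markers was 4, 5, 6 and 7 without antibiotics zinc replicates 1 to 4 and 5, 3 and 3 without SPF zinc replicates 1 to 3. Scin, an actin-severing protein, and Ceacam10 rose by 2.19 and 1.72 and stayed called in all 7 leave-one-out fits. Chst4, a sulphotransferase that acts on mucin sugars, rose by 2.25 with adjusted p up to 0.0905 when antibiotics zinc replicate 1 or any SPF zinc library was left out.

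Some of the genes for making proteins rose, and most members of these lists did not pass. All 47 tested ribosome biogenesis genes had a positive log2 fold change (median 0.46), and 18 rose (background 4.76% higher). Nop58, a core protein of the particles that methylate ribosomal RNA, read 86.8, 75.2, 85.8 and 86.9 CPM against 46.2, 46.8 and 46.0 CPM. This 1.81-fold difference (log2 fold change 0.85 ± 0.13, adjusted p = 0.000724) exceeded the spread in both groups. Wdr43, of the small-subunit precursor, rose by 0.63 (adjusted p = 0.00318). Of 82 cytosolic ribosomal protein genes 19 rose and none fell, with a median of 0.394. Among 77 mitochondrial ribosomal protein genes 25 rose, with a median of 0.404, and Mrpl17, a protein of the large mitochondrial subunit, rose by 0.80 (adjusted p = 0.00441). Of 57 translation factors 16 rose and of 23 cytosolic tRNA synthetases 8, none falling in either list. Eif4a1, the helicase that opens messenger RNA for the ribosome, read 360.1, 303, 313 and 352 CPM against 207, 201 and 210.1 CPM (log2 fold change 0.69 ± 0.12, adjusted p = 0.00276). Scaled by library totals, the medians were 0.528 for cytosolic ribosomal proteins and 0.59 for ribosome biogenesis, while the calls were 5 among ribosome biogenesis genes, 26 among cytosolic ribosomal proteins, 13 among mitochondrial ribosomal proteins, 16 among translation factors and 6 among tRNA synthetases. These counts fell together with the rises over all tested genes, which were 120 of 13345 without SPF zinc replicate 2 against 622 of 13070. In that fit there remained 4 calls among ribosome biogenesis genes, 1 among cytosolic ribosomal proteins, 4 among mitochondrial ribosomal proteins, 3 among translation factors and 2 among tRNA synthetases. In the same order they were 4, 3, 7, 5 and 2 on leaving out SPF zinc replicate 3, then 7, 8, 15, 9 and 5 for SPF zinc replicate 1 and 15, 2, 8, 8 and 7 for antibiotics zinc replicate 4. Without antibiotics zinc replicate 1 they were 9, 7, 12, 8 and 4, and without antibiotics zinc replicate 3 ribosome biogenesis had 9 and the synthetases 4. Without antibiotics zinc replicate 2 the synthetases had 5. The share of counts from 18S ribosomal RNA ranged from 1.96 to 6.09% over the 7 libraries, was highest in antibiotics zinc replicate 4, and its part in these differences was not tested.

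Some genes of the chaperonin, which folds actin and tubulin, rose. Of 14 chaperonin and prefoldin genes 7 rose and none fell, all 14 had positive values, and 6 to 10 were called in every leave-one-out fit. Cct3, a chaperonin subunit, read 189.8, 149, 189.8 and 199 CPM against 105, 105 and 105 CPM, a log2 fold change of 0.79 ± 0.13 (adjusted p = 0.00176). Tcp1, another subunit, rose by 0.68 (adjusted p = 0.00328). Among 28 cytosolic heat shock genes 9 rose, with a median of 0.446. Hspa8, the constitutive Hsp70, read 762, 817, 992 and 681 CPM against 349, 407 and 484 CPM (log2 fold change 0.98 ± 0.20, adjusted p = 0.00527), and its co-chaperone Stip1 rose by 0.87 (adjusted p = 0.00527). Hsp90aa1, chosen after its values were seen, rose by 1.01 with adjusted p = 0.0305, and up to 0.111 without antibiotics zinc replicate 3 or any SPF zinc library. Heat shock calls numbered 3 to 4 without any one SPF zinc library and 6 to 8 without any one antibiotics zinc library.

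All 43 proteasome subunits tested had positive log2 fold changes, with a median of 0.481, and 21 rose. Psmd7, of the lid, read 74.6, 56.4, 61.6 and 62.4 CPM against 41.3, 41.9 and 41.5 CPM (log2 fold change 0.62 ± 0.13, adjusted p = 0.00584). Psmc2, an ATPase of the base, rose by 0.55 (adjusted p = 0.0069). The number called was 9, 24, 19 and 10 without antibiotics zinc replicates 1 to 4, and 13, 2 and 5 without SPF zinc replicates 1 to 3. Of 38 genes of the unfolded protein response and the endoplasmic reticulum chaperones, 7 rose and 1 fell, with Pdia5 and Pdia4, disulphide isomerases, up by 1.01 and 0.85 and the secreted stress protein Manf by 0.75 (adjusted p = 0.0614 without SPF zinc replicate 3). Their number dropped to 3, 3, 4 and 2 without antibiotics zinc replicate 1 and SPF zinc replicates 1, 2 and 3. None of 27 genes of endoplasmic reticulum associated degradation was called by edgeR, with 5 at an unadjusted p under 0.05, 0 called by DESeq2 and 4 by limma-voom.

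**Figure D4:**
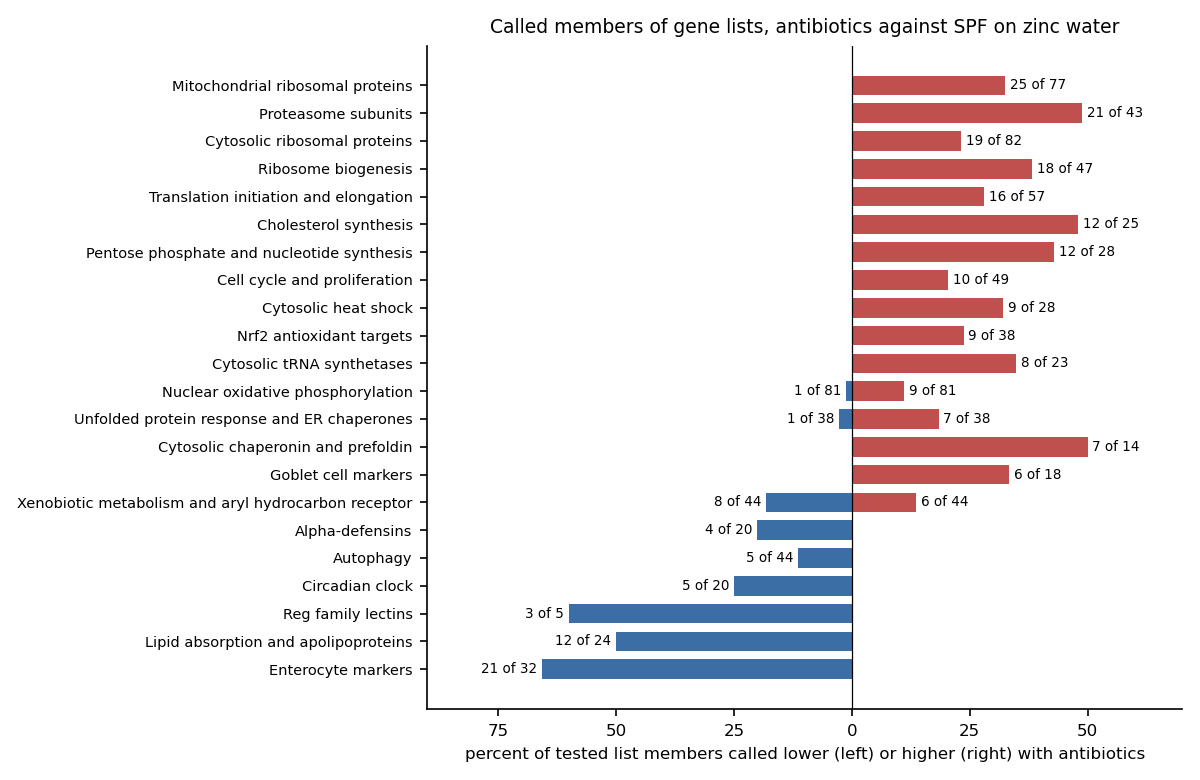
Percent of the tested members of 22 gene lists called lower (left) or higher (right) with antibiotics on zinc water, with the counts printed beside each bar. Enterocyte markers (21 of 32) lie to the left and proteasome subunits (21 of 43) to the right.

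Of 28 pentose phosphate and nucleotide synthesis genes 12 rose and all 28 were positive (median 0.442). Gart, of purine synthesis, rose by 0.56 and Tyms, which makes thymidylate, by 0.68, and their adjusted p were 0.0684 and 0.0685 without SPF zinc replicates 3 and 2. Of 49 cell cycle genes 10 rose and 16 had a negative log2 fold change. Among the rises was Pcna, the sliding clamp of DNA replication, at 0.71 (104, 95, 124 and 126 CPM against 66.5, 64.5 and 74.8 CPM, adjusted p = 0.0101). Without SPF zinc replicate 2 these lists had 1 and 0 calls, without SPF zinc replicates 1 and 3 they had 3 and 3, then 2 and 3, and without antibiotics zinc replicates 1, 3 and 4 they had 4 and 5, 5 and 3, and 6 and 5. Of 22 tricarboxylic acid cycle genes 6 rose, and 1 to 2 without antibiotics zinc replicate 1, SPF zinc replicate 2 or SPF zinc replicate 3. Scaled by library totals, 4 nucleotide synthesis genes and 3 cell cycle genes were called. Among 81 nuclear oxidative phosphorylation genes 9 rose, 3 with library totals and 5 with the GC and length correction, and none of these rises was called without antibiotics zinc replicate 1, antibiotics zinc replicate 4 or any one SPF zinc library. Cox6b2, a testis-type subunit of cytochrome oxidase, fell by 1.59. Mitochondrially encoded transcripts made up 1.88 to 3.75% of counts, and none of the 7 tested was called by edgeR, DESeq2 or limma-voom or had an unadjusted p under 0.05. Of the 13 genes on this list, 5 had no count in any of the 7 libraries (mt-Co2, mt-Atp8, mt-Atp6, mt-Co3 and mt-Nd4l). The share is therefore a partial count, and the cause was not tested.

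Among 25 tested cholesterol synthesis genes 12 rose, 13 did not pass and none fell, with a median log2 fold change of 0.733, and 3 stayed called in all 7 leave-one-out fits. Msmo1, a late sterol demethylase, read 88.8, 38.2, 61.0 and 68.0 CPM against 17.2, 29.4 and 22.1 CPM (log2 fold change 1.48 ± 0.30, adjusted p = 0.00547). Hmgcs1, which makes the precursor of mevalonate, read 179.6, 109, 158 and 116 CPM against 51.4, 74.6 and 57.2 CPM (1.2 ± 0.26, adjusted p = 0.00807). Antibiotics zinc replicate 2 was the lowest treated library for both, and neither gene's groups overlapped. Idi1, which isomerises the isoprenoid unit, rose by 1.5, and Fdft1, squalene synthase, by 0.78 (adjusted p = 0.0566 without SPF zinc replicate 2). Sqle, squalene epoxidase, rose by 1.05, and its adjusted p reached 0.0762 without SPF zinc replicate 1 or 3. The summed level of the list was 883.6 to 1286 CPM with antibiotics on zinc and 597.45 to 781.28 CPM in SPF mice on zinc, with 591.39 to 873.74 CPM and 658.77 to 940.72 CPM in SPF and antibiotics mice on Milli-Q water. The antibiotics zinc libraries lay at the top of these 4 groups, overlapping with the antibiotics Milli-Q group. The number of called members was 5, 13, 10 and 9 without antibiotics zinc replicates 1 to 4 and 4, 8 and 5 without SPF zinc replicates 1 to 3. Sqle was chosen after its values were seen.

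The promoters of the called genes were searched for the letters of known regulatory elements in the 250 bases before the RefSeq start, on both strands (RefSeq promoter sequences, GRCm38.p6, an earlier build than the counts). The windows below show the matches in Hmgcs1, Idi1 and Msmo1, 30 bases each, 5′ to 3′ on the strand of the gene, with the match in capitals.
Hmgcs1 sterol regulatory element, chr13:119690204-119690233, plus strand: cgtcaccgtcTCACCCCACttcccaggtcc
Hmgcs1 CCAAT box, chr13:119690102-119690131, plus strand: cactgaccttcaATTGGtcggagaacctct
Idi1 CCAAT box, chr13:8885549-8885578, plus strand: tgcctccagctgATTGGcgagcccgggcat
Msmo1 CCAAT box, chr8:64733721-64733750, minus strand: ccatccgcgcagCCAATgactggcgccgct
The sterol regulatory element, searched as TCACNCCAC, matched 1 of 8 called cholesterol genes that have a promoter entry (12 were called), and 1.22% of the 27025 genes with a promoter entry. The CCAAT box, searched as ATTGG, matched 7 of these 8 and 37.5% of all genes. Its match lay 237 bases before the listed start in Hmgcs1 and 45 in Idi1. The other searches were made on the called genes of 3 further lists. The antioxidant response element TGACNNNGC matched 3 of 8 Nrf2 targets and 11.5% of all genes, the heat shock element GAANNTTC 1 of 7 heat shock genes and 7.73%, and the Hnf4 site CAAAGTCCA 3 of 19 enterocyte markers and 0.451%. These are matches of letters in a window and say nothing of binding.

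Antioxidant and detoxification genes changed in both directions. Of 38 targets of Nrf2, the transcription factor of the oxidant response, 9 rose and none fell (median 0.33). Gpx2, the gastrointestinal glutathione peroxidase, read 337, 227, 309 and 241 CPM against 145, 139 and 149 CPM (log2 fold change 0.95 ± 0.18, adjusted p = 0.00336). Gsta3, a glutathione transferase, read 28.1, 6.59, 23.7 and 10.8 CPM against 2.12, 2.06 and 4.54 CPM (2.56 ± 0.53, adjusted p = 0.00596). Nqo1, a quinone reductase, read 30.3, 12.7, 37.1 and 19.9 CPM against 5.22, 6.68 and 5.88 CPM (2.07 ± 0.47, adjusted p = 0.0105). Replicates 1 and 3 were the higher antibiotics libraries for both Gsta3 and Nqo1. The carbonyl reductase Cbr3, at 2.47 to 17.3 CPM against 0.893 to 1.06 CPM, rose by 3.05, and the aldo-keto reductases Akr1c19 and Akr1c14 by 2.02 and 1.80. The calls of Cbr3 and Akr1c19 were lost without antibiotics zinc replicates 1 or 3 or any SPF zinc library (adjusted p up to 0.113 and 0.102). Without SPF zinc replicates 1 to 3 the Nrf2 list had 5, 3 and 4 calls, and without antibiotics zinc replicates 1 to 4 it had 5, 9, 6 and 11. With library totals it had 5. Of 44 xenobiotic metabolism genes 6 rose and 8 fell, with 2 rises left without any one SPF zinc library and 4 falls without SPF zinc replicate 2. The falls were led by cytochromes P450 that metabolise drugs and steroids, Cyp2b10 (2.09 to 2.98 CPM against 6.85 to 8.72 CPM, −1.60), Cyp3a25 (−2.51) and Cyp3a11 (0.310, 2.57, 2.36 and 5.09 CPM against 34.7, 33.9 and 24.5 CPM, −3.59), with adjusted p of 0.00227, 0.00314 and 0.00596. Cyp3a11 was also on the enterocyte list.

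Most of the granule products of Paneth cells did not pass the test. On a list of 19 tested products other than alpha-defensins, 3 rose, 2 fell and 14 did not pass. That is 26.3% called, against 8.97% of all tested genes. The rises were Tff3, Guca2a and Serpina1b, and Mptx2 was among the falls. In all 7 leave-one-out fits 1 rise and 1 fall stayed called. Alpha-defensin genes took 27.58 ± 2.09% (SD, n = 4) of all counts with antibiotics and 35.08 ± 1.30% (n = 3) in SPF mice on zinc. The difference of −7.50 percentage points had no overlap between groups, and an exact two-sided permutation test gave p = 0.05714, the smallest value that 4 against 3 libraries allow. Of 20 tested alpha-defensins 4 fell (Defa40, Defa41, Defa5 and Defa38, by 0.66 to 0.86 on the log2 scale, adjusted p 0.0249 to 0.0445), 18 were negative, and the median was −0.402. Without SPF zinc replicate 1, SPF zinc replicate 2 or antibiotics zinc replicate 2 none of the 20 was called, without antibiotics zinc replicate 1 there were 3, and without antibiotics zinc replicate 3, antibiotics zinc replicate 4 or SPF zinc replicate 3 there was 1. Defa24, a common alpha-defensin, did not pass (log2 fold change −0.46, adjusted p = 0.208). Defa genes are near-identical copies, and how reads shared between them were counted was not given. Defa23 and Defa36 had no count in any of the 7 libraries, although the paper lists both at high levels in a typical experiment. The share above therefore holds no counts of these genes and may be a partial count, and values of single members are uncertain. Lyz1 did not pass either (−0.07, adjusted p = 0.891), nor did Itln1, a lectin (−0.56, adjusted p = 0.125), Mmp7, which activates pro-defensins (−0.49, adjusted p = 0.142), or Ang4, an antimicrobial ribonuclease chosen after its values were seen (−0.53, adjusted p = 0.145).

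The metallothioneins, which bind zinc, did not pass. Mt1 read 718, 748, 1002 and 379.6 CPM with antibiotics and 461, 493 and 546 CPM in SPF mice, and Mt2 719.7, 858, 1039 and 369.6 CPM against 419.5, 484 and 580.1 CPM. Both groups overlapped, and neither gene passed (log2 fold changes 0.51 ± 0.30 and 0.59 ± 0.37, adjusted p 0.299 and 0.329). On Milli-Q water Mt1 averaged 44.4 ± 8.58 CPM with antibiotics and 37.1 ± 10.2 CPM in SPF mice. Of 26 metallothionein and zinc transporter genes 1 fell, Slc30a10, a manganese exporter, at 0 to 0.522 CPM against 2.04 to 3.27 CPM (−3.67, adjusted p = 0.0328, called in only 1 of the 7 leave-one-out fits, that without antibiotics zinc replicate 4). In iron handling, Tfrc, the transferrin receptor, rose by 1.41 ± 0.31 (142, 186, 314 and 482 CPM against 84.3, 122 and 111 CPM, adjusted p = 0.00807), and Cox17, a copper chaperone, fell by 1.36 (adjusted p = 0.00551).

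Other lists had few calls. Of 20 circadian clock genes 5 fell and 18 were negative. Tef, a clock output factor, was down by 1.13 and stayed called in all 7 leave-one-out fits. The period gene Per1 fell by 1.19 (adjusted p = 0.0268, up to 0.119 without antibiotics zinc replicates 1, 2 or 4 or SPF zinc replicates 2 or 3). The number of falls was 1 to 3 when single libraries were left out and 1 with library totals, and the time of day of collection was not given. Of 44 autophagy genes 5 fell, with the receptor Calcoco1 down by 1.43 and the initiating kinase Ulk1 by 0.82. Both stayed called in all 7 leave-one-out fits, and they were the 2 falls left without antibiotics zinc replicates 1 or 4 or any one SPF zinc library. With library totals 1 was called. Among 52 interferon-stimulated genes 1 fell, Trim25, a ligase of RNA sensing, by 0.56 (adjusted p = 0.0153), and it was lost without any one SPF zinc library (0.0518 without SPF zinc replicate 1). None of 12 MHC class II genes, 29 secretory lineage transcription factors, 30 niche and Wnt genes or 33 junction and keratin genes was called by edgeR. At an unadjusted p under 0.05 they had 1, 8, 10 and 5 genes, and in that order DESeq2 called 0, 2, 2 and 2 and limma-voom 0, 5, 7 and 4. The summed level of the MHC class II genes varied widely within the antibiotics zinc group, at 245.54, 143.02, 108.96 and 550.42 CPM against 148.57 to 186.75 CPM. Outside every list, Id4, an inhibitor of helix-loop-helix factors, rose 10.7-fold, from 0.245 to 0.670 CPM to 2.49 to 8.11 CPM (log2 fold change 3.42 ± 0.52, adjusted p = 0.000744), and it was chosen after its values were seen.

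Markers of immune and stromal cells were low, and those of the other epithelial types were not. T cell and intraepithelial lymphocyte markers summed to 1.59 to 3.07 CPM with antibiotics and 1.94 to 7.09 CPM in SPF mice, 10 of 25 were at 0 in all 7 libraries (Cd3d, Cd8b1 and Cd4 among them), and 0 of the 2 tested were called (0 by DESeq2, 1 by limma-voom, 0 at an unadjusted p under 0.05). Myeloid markers summed to 6.28 to 11.8 CPM against 11.8 to 14.5 CPM with 12 of 25 at 0 (Csf1r and Adgre1 among them) and 1 of 5 tested lower, Cd300lf, by 1.47 (adjusted p = 0.011, lost without SPF zinc replicate 2), and stromal, endothelial and glial markers to 4.94 to 7.06 CPM against 4.54 to 5.63 CPM. B and plasma cell markers summed to 53.6 to 60.8 CPM against 38.5 to 45.3 CPM, with no overlap and 6 of 15 at 0 (Cd79a and Ms4a1 among them). The 1 tested member, Sdc1, syndecan 1, which epithelial cells also carry, made up most of that sum and rose by 0.47 (adjusted p = 0.0436), a call lost in each of the 7 leave-one-out fits. Enteroendocrine markers summed to 1581.1 to 3024.6 CPM against 1821.8 to 2436.3 CPM, with 1 of 21 called, Sct, the hormone secretin, higher by 0.92 (adjusted p = 0.00859, lost without SPF zinc replicate 3). Tuft cell markers summed to 1093.8 to 1503.5 CPM against 1262.3 to 1405.6 CPM and stem cell markers to 3831.3 to 5278.2 CPM against 4465.4 to 5197.6 CPM, each overlapping. None of 23 tuft cell markers was called by edgeR or DESeq2, 2 were called by limma-voom, and 2 had an unadjusted p under 0.05. Of 21 stem cell markers, Rgmb and Msi1 fell by 0.69 and 0.75 (background 4.21% lower). No stem cell marker was called without antibiotics zinc replicates 1 or 4 or SPF zinc replicates 2 or 3.

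The same comparison on Milli-Q water uses 4 antibiotics and 3 SPF libraries that are not among the 7 zinc libraries. There 26 genes (0.199%) passed, 6 higher and 20 lower, and 14 of these were also called on zinc, all in the same direction. They were Reg3b, Reg3g, Pdia2, Cfi, Mptx2, C1qtnf1, S100g, Slc28a2, Ret, Sgk1 and Defa41 among the falls and Fcgbp, Scgb2b7 and Id3 among the rises. On zinc the calls of Ret, Sgk1, Defa41 and Id3 were each lost in 5 or 6 of the 7 leave-one-out fits. Of all 1172 genes called on zinc, 689 had the same sign on Milli-Q water (340 of 622 rises and 349 of 550 falls), and the rest did not. Reg3b averaged 2.69 ± 1.14 CPM with antibiotics and 103 ± 15.0 CPM without them on Milli-Q water (log2 fold change −5.29), and Reg3g 18.7 ± 2.69 against 433 ± 67.4 CPM (−4.53). Fcgbp averaged 859 ± 176 against 319 ± 47.3 CPM there (1.43). On Milli-Q water no member of the enterocyte, lipid absorption, cholesterol synthesis, ribosome, proteasome, chaperonin, heat shock or Nrf2 lists was called, and Fcgbp was the only goblet cell marker. Median log2 fold changes on Milli-Q water were −0.432 for enterocyte markers, −0.326 for lipid absorption, 0.02 for goblet cell markers, 0.034 for cholesterol synthesis, −0.003 for proteasome subunits, −0.008 for the chaperonin and −0.144 for Nrf2 targets. Nqo1 averaged 4.44 ± 1.56 and 5.66 ± 4.80 CPM with and without antibiotics on Milli-Q water, and Cct3 125 ± 10.3 and 124 ± 12 CPM.

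**Figure D5:**
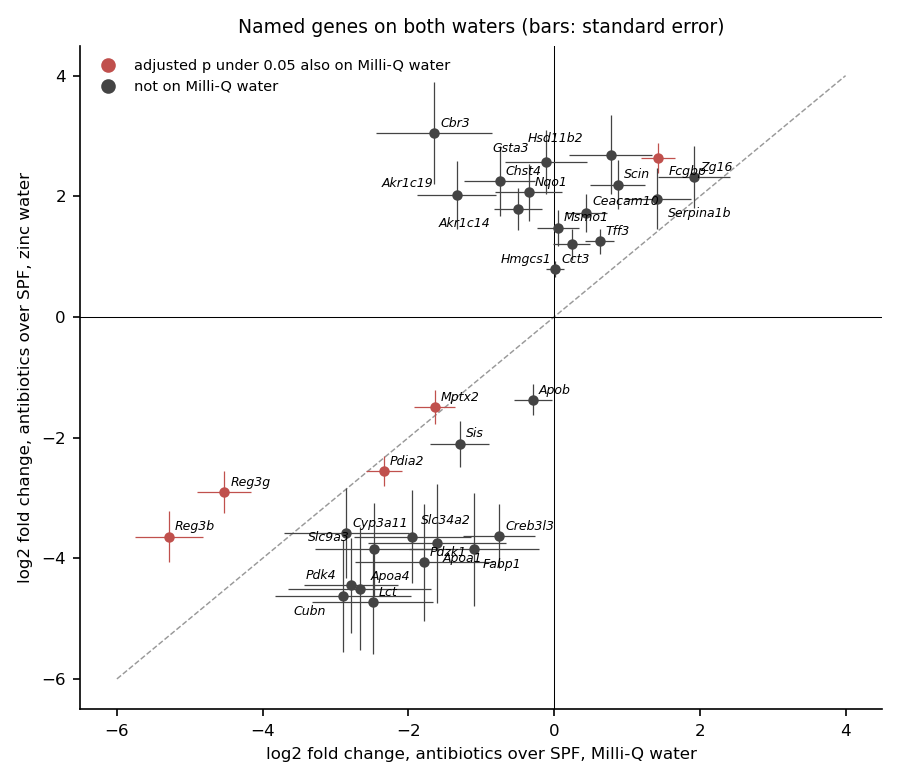
Log2 fold change of antibiotics over SPF on Milli-Q water (horizontal) and on zinc water (vertical) for named genes, with standard errors as bars and the line of equality dashed. Red points were called on both waters, such as Reg3b at −5.29 and −3.64, and Cct3 lies at 0.01 and 0.79.

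The difference of the antibiotics effect between both waters was tested as an interaction in the same fit. No gene passed after adjustment in edgeR, although 2418 had an unadjusted p under 0.05, and 260 passed in DESeq2 and 473 in limma-voom. A call on zinc and none on Milli-Q water therefore does not show that the effect differed. Unadjusted interaction p-values were 0.00105 for Fcgbp, 0.00301 for Reg3g, 0.0127 for Reg3b, 0.00027 for Cct3, 0.00112 for Nqo1, 0.00196 for Msmo1, 0.0745 for Lct and 0.545 for Pdia2. Most genes examined singly were chosen by their difference on zinc water, which is part of the interaction, so that choice favours small values. Of these 117 genes 68 had an unadjusted p under 0.05, against 2418 of all 13070.

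Germ-free mice on zinc water were compared with the same 3 SPF zinc libraries, so that their values stand beside those above and are not independent of them. Reg3b averaged 12.5 ± 3.42 CPM in germ-free mice (log2 fold change −2.80, adjusted p = 0.00171), Reg3g 106 ± 44.5 CPM (−1.34, adjusted p = 0.0241) and Fcgbp 330 ± 72.6 CPM (1.25, adjusted p = 0.00552). Enterocyte markers had a median log2 fold change of −0.52 in germ-free mice and −1.07 with antibiotics. Cholesterol synthesis genes had a median of −0.07 in germ-free mice and 0.733 with antibiotics. Goblet cell markers had medians of 0.661 and 0.625 in that order, and cytosolic ribosomal proteins 0.481 and 0.394. For the alpha-defensins the medians were 0.797 and −0.402. Alpha-defensins took 39.3 to 42.0% of counts in the 4 germ-free zinc libraries and 33.8 to 36.4% in the 3 SPF zinc libraries. The TMM factors were 0.522 to 0.834 in the former and 0.996 to 1.17 in the latter, and lower factors raise scaled values. No result with library totals is given for the germ-free comparison.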

How the data were processed

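Purified Paneth cells were profiled by messenger RNA sequencing (Aurum total RNA extraction, Illumina TruSeq stranded library kit, per the labels). The authors deposited 1 table of gene counts for 21 libraries, 7 of which are compared here. Reads had been aligned with STAR to GRCm39 with GENCODE annotation. The submitters' processing notes list STAR 2.7.0a and FastQC 0.12.0, and the counting tool, whether it used strand and what it did with reads of several positions were not given in the sources used here. Groups were taken from the sample labels. The lists and the genes named were chosen with earlier results of these data known, and none is independent evidence.

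Genes were filtered by edgeR's filterByExpr, which kept 13070. Counts were scaled by TMM, and all 21 libraries in 6 groups were fitted with edgeR 4.0.16 (quasi-likelihood test), with Benjamini-Hochberg adjustment over all tested genes and a threshold of 0.05. Standard errors, fold changes and adjusted p-values come from this fit unless another tool is named. The 7 zinc libraries held 12052705 to 14895603 counts. Gene positions came from the GRCm39 annotation. Counts were also simulated with gene means and spread taken from all 21 libraries. Changes were put into the antibiotics zinc group, only in genes above a minimum mean level. There the fit recovered 22.4% of 1.5-fold, 73.1% of 2-fold and 95.5% of 4-fold changes, and 3.05% of its calls were false. This recovery does not cover genes at the lowest levels. Each gene was drawn independently, with the same mean profile in all groups apart from the changes put in. Differences that many genes of a library share were not simulated. The rates of recovery and of false calls therefore need not hold for the real libraries, where leaving out 1 zinc library left 272 to 1059 calls.

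Named genes were the 12 largest rises and 12 largest falls among called genes with a mean of at least 5 CPM in the higher group and no overlap, up to 4 called genes per list by smallest p (or the 2 most abundant where fewer than 2 passed), and Reg3b, Reg3g, Mt1, Mt2, Defa24, Lyz1, Itln1, Mmp7 and Xist. Some genes are not reported here. Same-numbered libraries of both groups did not deviate together (r 0.065, 0.031 and −0.02 over genes), so no pairing was used. Alternatives were other scalings, filters and libraries, DESeq2 1.42.0, limma-voom (limma 3.58.1), a replicate block, a GC and length correction, and leaving out each library.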

Additional observations from a re-analysis of the deposited data

Results flagged for a closer look

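Among 122 values checked for a library far from the other antibiotics zinc libraries, 10 were flagged, and chance alone flags about 1 in 20 groups. For each, the gap to the nearest library is given as a share of the group's range.

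In 5 of the 10, antibiotics zinc replicate 1 was the high library: Zg16 (gap 0.978, 692.6 CPM against a next highest 183.8), Serpina1b (0.971, 15.73 against 4.852 CPM), Itln1 (0.882, 31899 against 20881 CPM), Hsd11b2 (0.840, 70.18 against 27.83 CPM) and Guca2a (0.835, 1152 against 755.7 CPM). Hsd11b2, which inactivates glucocorticoids, rose by 2.69 with adjusted p = 0.0146, and Serpina1b, a protease inhibitor, by 1.96 with adjusted p = 0.0191. Without antibiotics zinc replicate 1 both lost their calls, as they did without SPF zinc replicates 2 or 3 (highest adjusted p 0.0643 and 0.107), and Hsd11b2 also without SPF zinc replicate 1.

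Slc9a3 (gap 0.830, 0.979 against 0.27 CPM) and Reg1 (0.872, 5.75 against 1.85 CPM) were high in antibiotics zinc replicate 4, and all their values lay below the lowest SPF zinc library. Pfkfb2 was high in replicate 3 (0.919, 5.93 against 3.96 CPM) and below every SPF zinc library. Pdia4 was low in replicate 4 (0.952, 85.1 against 127 CPM) and above every SPF zinc library. Nop58 was low in antibiotics zinc replicate 2 (gap 0.910, 75.16 against 85.85 CPM), which still lay above every SPF zinc library.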

How the results depend on the processing

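Genes called on zinc numbered 606 (446 higher, 160 lower) with library totals, 2640 with limma-voom (1369 higher, 1271 lower) and 2017 with only the 7 zinc libraries (1024 higher, 993 lower), against 1172. When single zinc libraries were left out, the numbers were 272 to 1059 in all, 120 to 611 higher and 152 to 448 lower, and without single Milli-Q libraries 1051 to 1288 in all. With the GC and length correction 1096 were called, 886 of them among the 1172. The median GC content and longest transcript were 46.95% and 3494 bases for rises, 51.93% and 4594 bases for falls, and 49.29% and 4180 bases for all tested genes. With the replicate block 934 were called. The block moved the zinc count by less than 1.5 times, but with it 8 cytosolic ribosomal genes rose against 19, 14 mitochondrial ribosomal against 25, 0 oxidative phosphorylation against 9 and 0 fatty acid oxidation against 2, and 2 circadian and 2 autophagy genes fell against 5 in each list. On Milli-Q water it left 12 of 26, or 14 with the GC and length correction. Milli-Q calls were 50 with DESeq2 and 406 with no filter on low counts, and 10 to 83 without single libraries. Interaction calls, 0 in edgeR, were 260 with DESeq2, 473 with limma-voom, 675 with no filter, and 0 to 21 without single libraries. The cause of these changes was not tested. The difference in the alpha-defensin share kept its sign in all alternatives. Lyz1, at −0.07, changed sign with library totals (0.034) and without antibiotics zinc replicate 2 (0.065, with −0.295 at the other end of the leave-one-out range), and passed in neither. Reg4, at −0.04, changed sign with library totals (0.079) and in 3 leave-one-out fits (range −0.307 to 0.095). No other of the 117 genes examined singly changed direction under these alternatives. Library totals removed 14 of their calls, the replicate block 4, and leaving out 1 library 10 to 32. In the simulation, changes under 2-fold were recovered in part only.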
